A study of Mus musculus with 30 samples.

Results

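The bone morphogenetic protein (BMP) pathway was followed in single mouse primordial germ cells (PGCs) through 10 genes chosen by name: the ligands *Bmp4* and *Bmp8b*, the receptor *Bmpr1a*, the signal carriers *Smad1* and *Smad5*, and the response genes *Id1*, *Id2*, *Id3*, *Msx1* and *Msx2*. Every probe set that carried 1 of these symbols alone was taken, which gave 24 of the 45101 probe sets of the array and 10 of its 18194 named genes. The rule used gene names and no measured value, but the genes were chosen with earlier results of these data known. A probe set was compared between genotypes where it lay above 64 units, or 6 on the log2 scale, in at least 15 of the 30 cells. This held for 15 of the 24 probe sets of these genes and for 11467 of all probe sets, and it left out both probe sets of *Bmp8b*.

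BMP ligands bind pairs of type I and type II receptor kinases, and the activated type I receptor phosphorylates SMAD1 and SMAD5, which enter the nucleus with SMAD4 and switch on target genes such as the Id and Msx families. In the mouse gastrula, BMP4 and BMP8B from the extraembryonic ectoderm induce a few proximal epiblast cells to become PGCs. The founders of the germ line then gather at the base of the allantois, a bud of extraembryonic mesoderm that itself makes BMP4.

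The cells were of untreated C57BL/6 mouse embryos, bred from heterozygous (*Prdm14*+/-) parents and collected at E7.25-E7.5. Cells of the allantois base were picked individually with a glass capillary, taken as PGCs where PCR found *Prdm1*, and their amplified cDNA was hybridised to 1 array per cell. The labels give 4 cells as *Prdm14* KO (-/-), 13 as *Prdm14*+/- and 13 as WT (+/+). The stage is given both as early-to-mid and as early-to-late bud, and no embryo, sex or litter is named, so a genotype is 1 sample here, the SDs are between cells and differences carry no p-value. Shared stems of the array codes mark 3 array runs. Of these, run 3 held the 4 cells labelled *Prdm14* KO and 6 labelled *Prdm14*+/-, run 2 held 7 labelled *Prdm14*+/- and 3 labelled WT, and run 1 held 10 labelled WT. No run held both *Prdm14* KO and WT, so for these labels genotype and run cannot be told apart except through the cells labelled *Prdm14*+/-. Cells are called KO-labelled, +/- labelled and WT-labelled below.

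Values are the log2 of the model-based expression index (MBEI) that the authors calculated, and the number of arrays limits their precision. Of all values, 63.7% were listed at 0, so values below 6 were set to that floor, where they have no order. *Prdm14* itself averaged 11.40 ± 0.98 in KO-labelled cells (SD, n = 4), 9.70 ± 1.93 in +/- labelled cells and 7.40 ± 1.85 in WT-labelled cells (SD, n = 13 each). The transcript thus ran against the labels, and it is not known here whether the probe set covers the deletion. *Dppa3*, a germ cell gene, was also highest in KO-labelled cells, which is opposite to the direction drawn in the study, so every direction below rests on the deposited labels. *Prdm1*, which chose the cells, was above the floor in all 30 but not level between labels. It averaged 11.85 ± 0.37 in KO-labelled cells (SD, n = 4), 10.23 ± 1.36 in +/- labelled cells and 10.11 ± 1.20 in WT-labelled cells (SD, n = 13 each). Of the genes listed for neighbouring tissues, *Elf5* of extraembryonic ectoderm, *Afp* and *Ttr* of visceral endoderm, and *Gata1* and *Hbb-bh1* of blood were never above it, while 3 of 8 extraembryonic ectoderm genes and 1 of 9 each of visceral endoderm and of blood and endothelium were above it in at least 15 cells. The visceral endoderm gene was higher by 1.73 and the blood or endothelial gene by 2.65 in KO-labelled cells than in WT-labelled cells. Each is 1 gene of a list of 9, so neither stands for its tissue. In the same comparison 6 of 10 measured germ cell genes were higher by at least 1 and 0 lower, against 21.6% of all probe sets past 1. The 1 measured epiblast gene differed by -3.52. The 75th percentile of an array averaged 7.20 over KO-labelled cells, 6.69 over +/- labelled cells and 6.47 over WT-labelled cells.

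Of the ligands, *Bmp4* was measured in nearly every cell and *Bmp8b* in few. *Bmp4* (probe set 1422912_at) was above the floor in 29 of 30 cells. In the KO-labelled cells it had 7.78, 12.20, 11.34 and 11.38 log2 MBEI. It had 9.57 at the lowest, 11.66 at the median and 12.44 at the highest in the 13 +/- labelled cells, and 6 (listed at 0), 11.47 and 12.40 in the 13 labelled WT. The labels overlapped over most of their range, and the low values were single cells: cell 8 labelled *Prdm14* KO at 7.78, and cell 61 at 8.09 and cell 31 at the floor, both labelled WT. The mean difference was -0.03 between KO-labelled and WT-labelled cells (pooled SD of 1.90) and 0.71 between +/- labelled and WT-labelled cells (pooled SD of 1.49). Within run 3 the KO-labelled cells lay below +/- labelled cells by a difference of -0.46 (pooled SD of 1.42), and without cell 8 this became 0.51. The difference between KO-labelled and WT-labelled cells was 0.94 without cell 8 and 0.60 with the run as a block. None of the 3 mean differences over all cells of a label or run exceeded the spread between cells.

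*Bmp8b*, the ligand that acts with BMP4 in PGC induction, was above the floor in 6 of 30 cells with probe set 1440706_at and in 0 of 30 with 1450342_at. It was above the floor in 0 of the 4 KO-labelled cells, in 2 of the 13 labelled *Prdm14*+/- (8.21 and 8.57) and in 4 of the 13 labelled WT (7.84, 8.07, 8.22 and 8.29). The 4 WT-labelled cells were all in run 1, and the WT-labelled cells of run 2 had none, as had KO-labelled cells in run 3. The values above the floor therefore lay close together, while the other 24 cells were listed at 0. Among the cells with *Bmp8b*, *Smad1* was above the floor in 2 of 6, against 20 of 30 overall.

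**Figure D1:**
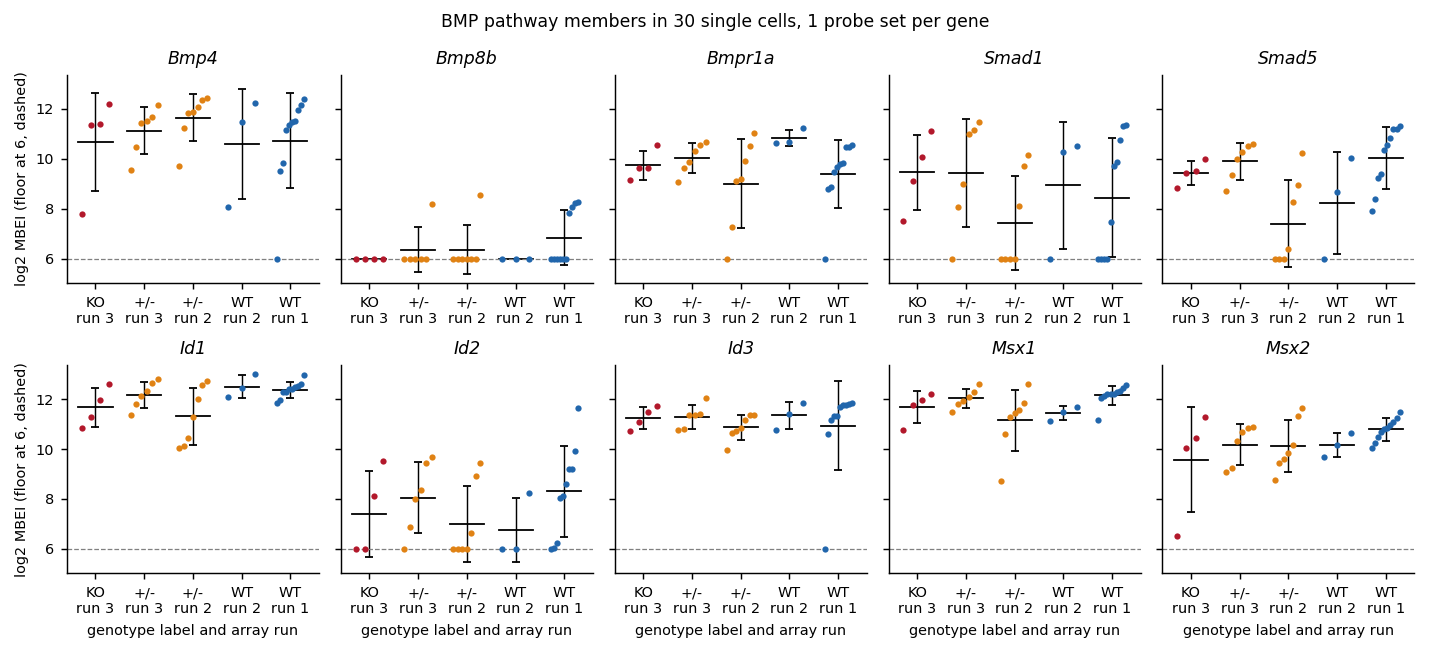
Level of each gene (log2 MBEI, probe set with the highest mean) in each of the 30 cells, by genotype label and array run, with points for cells, wide lines for means and bars for the SD between cells. *Id1*, *Msx1* and *Msx2* lay above the floor of 6 in every cell, while *Bmp8b* lay at it in 24 and *Smad1* and *Id2* in 10 each.

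*Bmpr1a*, which encodes the type I receptor ALK3, was measured by 6 probe sets, of which 4 passed the minimum of 15 cells. At least 1 of the 6 was above the floor in all 30 cells. The probe set with the highest mean, 1425492_at, had 9.17, 9.64, 9.64 and 10.55 in KO-labelled cells. It had 6 at the lowest, 9.89 at the median and 11.05 at the highest in +/- labelled cells, and 6, 9.83 and 11.22 in WT-labelled cells. The labels overlapped, and 1 cell labelled *Prdm14*+/- (cell 88) and 1 labelled WT (cell 49) were listed at 0 while other probe sets of the gene were above the floor there. The difference between KO-labelled and WT-labelled cells was 0.02 (pooled SD of 1.22), and between 0.13 and 0.94 for the other 3 probe sets. With the run as a block it was between -0.83 and -0.24 for the other 3 probe sets and -2.13 for 1425492_at. The last value rests on the 3 WT-labelled cells of run 2. Those 3 cells held 10.65, 10.69 and 11.22, and 6 of the 7 +/- labelled cells in the same run lay below all of them. The probe sets did not vary together alike: 1425493_at and 1425494_s_at had r = 0.96 over the 30 cells, whereas 1425491_at and 1425492_at had r = 0.05. Over all genes with several probe sets, the median r of such pairs was 0.56 (4628 pairs of 2259 genes).

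The signal carriers were measured less evenly than the receptor. *Smad1* (1448208_at) was above the floor in 20 of 30 cells, at 9.13, 11.10, 7.52 and 10.07 in KO-labelled cells. Its lowest, median and highest values were 6, 8.13 and 11.47 in +/- labelled cells, and 6, 9.70 and 11.37 in WT-labelled cells. All 4 KO-labelled cells thus lay above the floor, against 8 of 13 labelled *Prdm14*+/- and 8 of 13 labelled WT, but within the range of both. The difference between KO-labelled and WT-labelled cells was 0.89 for this probe set (pooled SD of 2.18) and 1.43 for 1459843_s_at (pooled SD of 1.54). These 2 probe sets had r = 0.75. Within run 3 the differences from +/- labelled cells were 0.01 and 0.74. With the run as a block, that between KO-labelled and WT-labelled cells was -1.50 for 1448208_at and 0.64 for 1459843_s_at.

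*Smad5* (1433641_at) was above the floor in 26 cells. It had 9.50, 9.42, 10 and 8.83 in KO-labelled cells, a lowest, median and highest value of 6, 8.95 and 10.58 in +/- labelled cells, and 6, 10.04 and 11.31 in WT-labelled cells. The +/- labelled cells were split by run, and the other labels lay within their range or slightly above it. In run 3 the 6 +/- labelled cells ranged from 8.72 to 10.58 with a mean of 9.91, and in run 2 the 7 cells of the same label ranged from 6 to 10.23 with a mean of 7.41, of which 3 lay at the floor. This difference of 2.50 between 2 runs of 1 label was larger than the pooled SD of 1.38 between cells. The difference between +/- labelled and WT-labelled cells was -1.06 (pooled SD of 1.72), and between KO-labelled and +/- labelled cells within run 3 it was -0.47 (pooled SD of 0.65). Across all 13 +/- labelled cells the last value became 0.88. Of the other probe sets, 1451873_a_at was above the floor in 12 cells and 1421047_at in 1, so neither was compared. With 1451873_a_at, cells 88 and 89 of run 2, at the floor with 1433641_at, had 10.06 and 9.15. Its difference between +/- labelled cells of run 3 and run 2 was -0.60, and between +/- labelled and WT-labelled cells 0.35. At least 1 probe set was above the floor in 29 of 30 cells.

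Of the response genes, *Id1*, *Id2* and *Id3* encode inhibitors of basic helix-loop-helix factors, and *Msx1* and *Msx2* encode homeodomain repressors. *Id1* (1425895_a_at) had 10.83, 11.97, 11.28 and 12.59 in KO-labelled cells. Its lowest, median and highest values were 10.06, 12.02 and 12.79 in +/- labelled cells, and 11.83, 12.41 and 13 in WT-labelled cells. The WT-labelled cells were the narrowest and lay at the high end, with 2 of 4 KO-labelled cells and 6 of 13 labelled *Prdm14*+/- below all of them. The mean of KO-labelled cells fell short of that of the WT-labelled cells by a difference of -0.74, larger than the pooled SD of 0.46 between cells, though without cell 8 it was -0.46 and without cell 81 it was -1.04. The difference from +/- labelled cells within run 3 was -0.50 (pooled SD of 0.63), -0.22 without cell 8 and -0.04 from the +/- labelled cells of both runs, and that between +/- labelled and WT-labelled cells was -0.69 (pooled SD of 0.74). *Id1* was the member whose direction was the same in all 3 comparisons under every alternative that was run. With the run as a block its differences from the WT-labelled cells were -1.68 for *Prdm14* KO and -1.18 for *Prdm14*+/-.

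*Id2* (1435176_a_at) was above the floor in 20 cells. It had 6, 6, 8.13 and 9.52 in KO-labelled cells, a lowest, median and highest value of 6, 6.86 and 9.68 in +/- labelled cells, and 6, 8.13 and 11.63 in WT-labelled cells. Each label had cells at the floor and cells far above it: 2 of 4 labelled *Prdm14* KO, 8 of 13 labelled *Prdm14*+/- and 10 of 13 labelled WT were above. The difference between KO-labelled and WT-labelled cells was -0.53, within the pooled SD of 1.79, and became -1.07 between medians, -1.23 without cell 81 and -0.06 without cell 8 or without cell 18. Its other 2 probe sets were above the floor in 8 and 6 cells. *Id3* (1416630_at) differed little between labels. It had 10.72, 11.09, 11.72 and 11.48 in KO-labelled cells, a lowest, median and highest value of 9.98, 11.15 and 12.04 in +/- labelled cells, and 6, 11.41 and 11.86 in WT-labelled cells. Apart from cell 25, labelled WT and listed at 0, the labels covered nearly the same range. The 3 differences were 0.22, -0.04 and 0.03, the first and the last with cell 25 included. Between medians they were -0.12, -0.07 and -0.26. Within run 2, which does not hold cell 25, the difference between +/- labelled and WT-labelled cells was -0.48 (pooled SD of 0.50).

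*Msx1* (1448601_s_at) exceeded the floor in each of the 30 cells, with 11.98, 10.77, 11.78 and 12.21 in KO-labelled cells, a lowest, median and highest value of 8.73, 11.79 and 12.62 in +/- labelled cells, and 11.14, 12.19 and 12.56 in WT-labelled cells. The labels overlapped, and the low end was made up of single cells, cells 66 and 78 labelled *Prdm14*+/- at 8.73 and 10.61 and cell 18 labelled *Prdm14* KO at 10.77. Between KO-labelled and WT-labelled cells the second probe set, 1417127_at, differed by -0.41 (pooled SD of 0.60), close to the -0.30 of the first, and over the cells both had r = 0.92. Without cell 18 the first was 0.00, and its difference within run 3 was -0.04. The 3 WT-labelled cells of run 2 had 11.14, 11.48 and 11.69, and of the 10 in run 1 all but cell 25 lay between 12.06 and 12.56. This difference of -0.72 between runs of 1 label exceeded the pooled SD of 0.37 and was larger than the -0.35 (pooled SD of 0.50) between KO-labelled and +/- labelled cells within run 3.

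*Msx2* (1449559_at) had 10.44, 6.53, 10.05 and 11.28 in KO-labelled cells. Its lowest, median and highest values were 8.75, 10.18 and 11.66 in +/- labelled cells, and 9.68, 10.69 and 11.50 in WT-labelled cells. Of the KO-labelled cells, 3 lay within the range of the WT-labelled cells and cell 18 lay below every other cell. The difference of -1.07 from the WT-labelled cells (pooled SD of 1.04) rested on that cell and was -0.05 without it. Within run 3 the difference from +/- labelled cells was -0.61, and 0.41 without cell 18. The second probe set of *Msx2*, 1438351_at, differed by -0.10 between KO-labelled and WT-labelled cells, and over the 30 cells it had r = -0.15 with the first.

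Of the 15 probe sets that were compared, few differed by at least 1 log2 unit between labels, and no share was tested against that of the array. Between KO-labelled and WT-labelled cells, 2 of 15 did, *Smad1* 1459843_s_at at 1.43 and *Msx2* 1449559_at at -1.07, against 21.6% of all probe sets. Between KO-labelled and +/- labelled cells within run 3, 0 of 15 did, against 24.7%, with members from -0.64 to 0.74. Between +/- labelled and WT-labelled cells, 1 of 15 did, *Smad5* at -1.06, against 8.17%. No member separated 2 labels without overlap (0 of 15 in each comparison), against 0.488% of all probe sets for *Prdm14* KO and WT, 1.71% for *Prdm14* KO and *Prdm14*+/- within run 3, and 0% for *Prdm14*+/- and WT. The median difference of the members was -0.03, -0.28 and -0.20 in these comparisons, and that of all probe sets 0.07, 0.05 and -0.02. Against all 13 +/- labelled cells of both runs, 2 of 15 differed in KO-labelled cells, both probe sets of *Smad1* at 1.10 and 1.53, against 18.3% of the array.

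**Figure D2:**
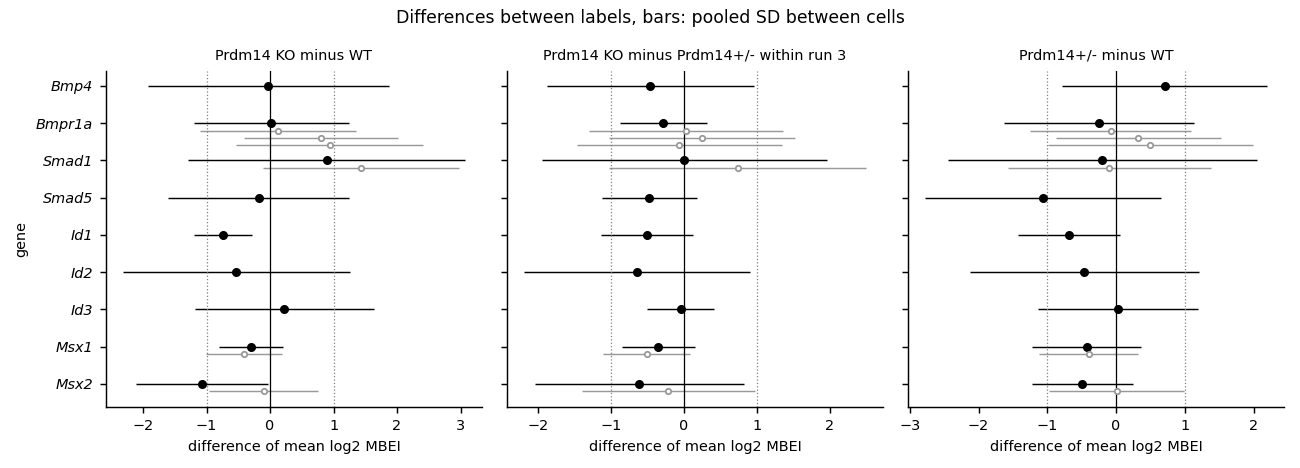
Difference of mean log2 MBEI (horizontal axis) for the 15 probe sets compared, by gene, in 3 comparisons of genotype labels. Filled points are the probe set with the highest mean, open points the others, bars the pooled SD between cells, and dotted lines 1 log2 unit. Between KO-labelled and WT-labelled cells, *Id1* lay at -0.74 and *Msx2* at -1.07, where the second *Msx2* probe set lay at -0.10.

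Differences between runs within 1 label were as large as those between labels. Among the +/- labelled cells, 5 of 15 probe sets were higher in run 3 than in run 2 by at least 1 and none lower, against 18.6% of all probe sets past 1 in either direction. These were *Smad5* at 2.50, both *Smad1* probe sets at 2.02 and 1.47, *Id2* at 1.05 and *Bmpr1a* at 1.02. The members' median difference there was 0.88, against 0.04 over all probe sets. Among the WT-labelled cells, 4 of 15 differed between run 2 and run 1, against 21.4% of the array, with *Bmpr1a* higher in run 2 by 1.46 and 1.11 for 2 of its 4 compared probe sets (0.74 and 0.79 for the others) and *Smad5* and *Id2* lower at -1.80 and -1.57. Within run 2, where +/- labelled and WT-labelled cells can be set side by side, 4 of 15 differed, against 25.8%: *Bmp4* at 1.06, *Bmpr1a* at -1.85, *Smad1* at -1.51 and *Id1* at -1.18. Of these, *Bmpr1a* and *Id1* exceeded their pooled SDs of 1.56 and 1.02, and *Bmp4* and *Smad1*, with 1.37 and 2.07, did not. Actin, whose RNA is probed at both ends, moved with label at its 5′ end and between runs of +/- labelled cells at both ends. Its 5′ probe set averaged 8.94 in KO-labelled cells, 9.37 in +/- labelled cells and 9.80 in WT-labelled cells, and among +/- labelled cells 9.66 in run 3 and 9.12 in run 2. The 3′ probe set averaged 12.16, 12.03 and 12.26 in these labels, and among +/- labelled cells 12.42 in run 3 and 11.70 in run 2. For *Gapdh* the 5′ probe set averaged 12.54, 12.77 and 13.10 in these labels, and the 3′ probe set 13.20, 13.25 and 13.36. The part of this in the members' differences was not tested.

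The 5 response genes were also averaged in each cell. In the KO-labelled cells this mean was 10, 9.27, 10.59 and 11.42. Its lowest, median and highest values were 8.95, 10.42 and 11.41 in +/- labelled cells, and 9.04, 11.02 and 11.96 in WT-labelled cells. The labels overlapped, with most WT-labelled cells in the upper part. The mean was 10.32 ± 0.91 in KO-labelled cells (SD, n = 4), 10.39 ± 0.81 in +/- labelled cells and 10.80 ± 0.74 in WT-labelled cells (SD, n = 13 each). The differences were -0.48 between *Prdm14* KO and WT, -0.43 between *Prdm14* KO and *Prdm14*+/- within run 3 and -0.41 between *Prdm14*+/- and WT, each within its pooled SD of 0.78, 0.69 and 0.78. Without cell 18 the first 2 were -0.13 and -0.08. Of the 5 genes, 4 were lower in the first comparison, 5 in the second and 4 in the third, each count resting on means and not on a test. The same label gave 10.75 ± 0.52 in run 3 (SD, n = 6) and 10.09 ± 0.93 in run 2 (SD, n = 7) for *Prdm14*+/-, a difference of 0.65 that was larger than the 3 between labels above, though within the pooled SD of 0.77. Marker genes of extraembryonic mesoderm and allantois moved with the label as well. Of 9 listed, 4 passed the minimum of 15 cells, and all 4 were lower by at least 1 in KO-labelled cells than in WT-labelled cells, against 21.6% of the array past 1 in either direction. Within run 3, 3 of the 4 were lower by at least 1 in KO-labelled than in +/- labelled cells, against 24.7% of the array. Between +/- labelled and WT-labelled cells 0 of 4 were past 1, against 8.17%, so a count of 0 says little there. Their summed level over the 9 genes ranged from 55.11 to 57.21 log2 units in KO-labelled cells, from 55.42 to 83.60 in +/- labelled cells and from 58.08 to 74.59 in WT-labelled cells, with *Tbx4* never above the floor. Their part in the result was not tested.

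**Figure D3:**
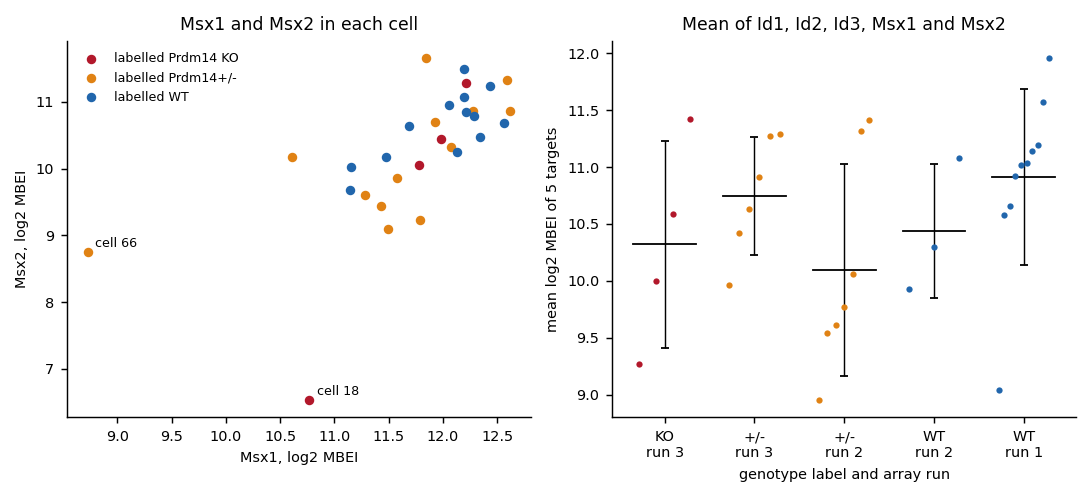
Left, *Msx2* against *Msx1* (log2 MBEI) in each of the 30 cells, coloured by genotype label. Right, the mean log2 MBEI of the 5 response genes in each cell by label and array run, with points for cells, wide lines for means and bars for the SD between cells, where the KO-labelled cells lay between 9.27 and 11.42 and WT-labelled cells between 9.04 and 11.96.

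The response genes varied together from cell to cell, and *Bmp4* had low correlations with them over all cells. All 10 pairs of response genes had a positive correlation over the 30 cells, with a median Pearson r of 0.47 and a range from 0.18 to 0.65. The median Spearman rho was 0.62. After each value was centred on the mean of its label and run, the median r was 0.41 and the range 0.18 to 0.68, so the pairs varied together inside labels and runs as well. For comparison, over all pairs of probe sets above the floor in at least 15 cells the 5th percentile of r was -0.31 and the 95th was 0.35, and 8 of the 10 pairs exceeded the upper value. Each gene entered by its probe set of highest mean. For *Msx2* this was 1449559_at, with which its second probe set, 1438351_at, had r = -0.15, so the pairs with *Msx2* rest on that choice. *Msx1* and *Msx2* had the highest, r = 0.65 (rho = 0.76), and r = 0.76 without the 2 cells farthest from the median of *Msx1*. *Id2* followed with r = 0.56 to each of *Id1*, *Msx1* and *Msx2*. In the 20 cells with both genes above the floor, *Id2* and *Msx1* had r = 0.55, *Id2* and *Id1* r = 0.49, and *Id2* and *Msx2* r = 0.40. *Id2* and *Id3*, both above it in 19 cells, had r = 0.08 there, against 0.37 over all cells. *Id3* had the lowest values over all cells, with r = 0.18 to *Id1* and 0.19 to *Msx2*, and these rested on cell 25: over the 29 other cells, with *Id3* above the floor, they were 0.39 and 0.33, and r to *Msx1* was 0.50, against 0.36 over all cells. The points share 1 amplification and 1 array per cell, and the response genes' mean had r = -0.01 with the share of probe sets above 0 on an array and -0.06 with its 75th percentile.

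*Bmp4* had r between -0.15 and 0.09 with the 5 response genes, with a median of -0.09, and -0.05 within label and run. Where both genes were above the floor, its r was -0.48 with *Id2* (19 cells) and 0.38 with *Id3* (28 cells), and from -0.10 to -0.01 with the other three. The carriers differed from each other: *Smad5* had r = 0.51 with *Id1* and 0.41 with *Id2*, and 0.37 and 0.27 within label and run, whereas *Smad1* had 0.07 and 0.23. *Smad5* and *Smad1* had r = 0.10 with each other. *Bmpr1a* went with *Smad1* (r = 0.52, and 0.48 within label and run) and less with the response genes, from -0.09 for *Msx1* to 0.31 for *Id1*. *Bmp8b* had its lowest r with *Smad1*, -0.44, and rested on 6 cells. For 10 germ cell genes the r with the response genes' mean had a median of -0.08, with a range from -0.23 for *Prdm14* to 0.34 for *Nanog*. Within label and run the median was 0.03, with 0.06 for *Prdm14* and 0.43 for *Nanog*. The 4 measured markers of extraembryonic mesoderm and allantois had a median r of 0.25 with that mean and a range from -0.02 for *Twist1* to 0.55 for *Hand1*, and 4 of posterior mesoderm a median of 0.09. Of these, *Hand1*, a target of BMP signalling in the allantois and lateral mesoderm, had r = 0.54 within label and run.

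**Figure D4:**
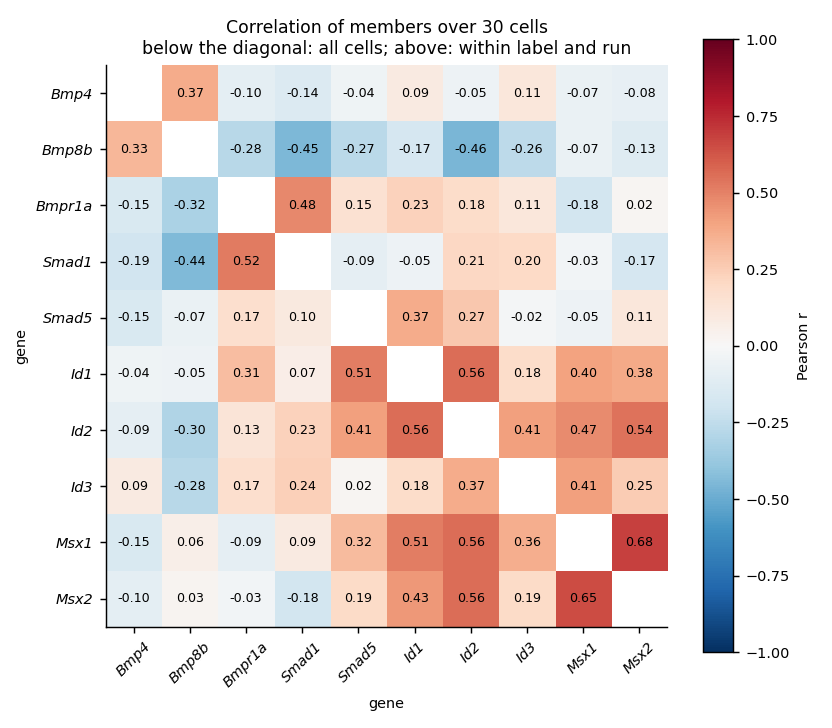
Pearson r between the 10 genes over the 30 cells, with values over all cells below the diagonal and values centred within label and run above it. The 5 response genes form a block of positive values from 0.18 to 0.65 below the diagonal, and the row of *Bmp4* lies near 0 against them.

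Because the response genes varied together, their upstream sequences were compared. Windows of 250 bases before the RefSeq start (GRCm38.p6) were at hand for 9 of the 10 genes, all but *Id1*. Those of the other response genes, *Id2*, *Id3*, *Msx1* and *Msx2*, are shown. Capitals mark the letters GGCGCC, a palindromic SMAD1 and SMAD5 element, and CCAAT or its reverse complement ATTGG, the CCAAT box. The sequences read 5′ to 3′ towards the gene.
Id2 upstream window, chr12:25096093-25096342, minus strand: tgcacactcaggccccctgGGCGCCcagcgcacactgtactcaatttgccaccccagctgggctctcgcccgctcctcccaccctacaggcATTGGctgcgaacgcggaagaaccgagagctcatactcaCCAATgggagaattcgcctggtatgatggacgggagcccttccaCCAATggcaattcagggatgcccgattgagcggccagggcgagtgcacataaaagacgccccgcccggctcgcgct
Id3 upstream window, chr4:136143572-136143821, plus strand: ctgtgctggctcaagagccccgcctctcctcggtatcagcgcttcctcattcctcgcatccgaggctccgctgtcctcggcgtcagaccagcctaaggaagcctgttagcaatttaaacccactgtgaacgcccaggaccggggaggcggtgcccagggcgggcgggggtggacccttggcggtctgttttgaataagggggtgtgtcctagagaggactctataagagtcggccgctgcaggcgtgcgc
Msx1 upstream window, chr5:37824586-37824835, minus strand: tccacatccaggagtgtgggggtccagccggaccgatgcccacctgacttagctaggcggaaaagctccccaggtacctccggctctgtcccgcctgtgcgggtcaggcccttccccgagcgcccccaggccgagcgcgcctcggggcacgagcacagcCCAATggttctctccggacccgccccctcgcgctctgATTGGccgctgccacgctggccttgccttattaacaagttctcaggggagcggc
Msx2 upstream window, chr13:53472781-53473030, minus strand: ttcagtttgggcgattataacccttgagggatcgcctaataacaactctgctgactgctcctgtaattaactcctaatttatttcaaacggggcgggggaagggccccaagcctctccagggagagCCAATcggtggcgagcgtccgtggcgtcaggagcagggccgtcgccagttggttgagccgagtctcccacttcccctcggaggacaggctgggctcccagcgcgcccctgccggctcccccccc
GGCGCC occurred once in the window of *Id2* and was not in those of *Id3*, *Msx1* and *Msx2*. Of all 32851 windows, 9.59% held it on either strand, among them also those of *Bmpr1a* and of 1 of the 3 starts of *Smad5*. The palindrome GTCTAGAC was in 0.167% of windows and in none of these genes. The CCAAT box, added to the search after the sequences were seen, occurred 3 times for *Id2*, 2 times for *Msx1*, 1 time for *Msx2* and not for *Id3*. It was in 33.8% of all windows, among them also those of *Bmp8b*, *Bmpr1a*, *Smad1* and *Smad5*, so it was not particular to the response genes. The matches are a description of these letters and, in the windows shown, did not overlap each other.

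For each of the 9 members compared, the probe sets of other genes most like it within label and run were found among those above the floor in at least 15 cells. *Msx1* was most like *Ddx49* (r = 0.83), *Chmp4b* (r = 0.81) and *Serpinh1* (r = 0.76). *Msx2* was most like *Pttg1ip* (r = 0.80), and *Msx1* itself came second with r = 0.72 through its probe set 1417127_at. *Id3* was most like *Lsm6* (r = 0.82), *Ctage5* (r = 0.80) and *Vta1* (r = 0.76). These *Id3* values include cell 25, labelled WT, which lay at the floor of 6 against 10.62 for the next cell of run 1. The part of cell 25 in them was not tested. *Zkscan3* was among the 3 nearest for both *Id2* (r = 0.71) and *Id1* (r = 0.59). *Fabp5* was nearest to *Bmpr1a* (r = 0.78), *Mrps25* to *Smad1* (r = 0.74), *Slc50a1* to *Bmp4* (r = 0.67), *Brd1* to *Smad5* (r = 0.61) and *Lasp1* to *Id1* (r = 0.60). Each value is among the highest of at least 10454 compared and is given as a description. No other member was among the 3 nearest of any member.

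Other genes of the pathway were taken from a list of 38 by role, each by its probe set with the highest mean, of which 36 were analysed here and 18 were above the floor in at least 15 cells. Of the 18, 4 were higher and 6 lower by at least 1 in KO-labelled cells than in WT-labelled cells, 0 were higher and 5 lower than in +/- labelled cells within run 3, and 0 were higher and 2 lower in +/- labelled cells than in WT. Over all probe sets, 21.6%, 24.7% and 8.17% were past 1 in these comparisons, and the shares were not tested against each other. Among ligands, *Bmp7* was the only 1 of 7 that passed the minimum, with 9.08 ± 1.31 in KO-labelled cells (SD, n = 4), 8.00 ± 1.59 in +/- labelled cells and 7.48 ± 1.56 in WT-labelled cells (SD, n = 13 each). *Bmp8a* and *Bmp15* were never above the floor. Among receptors, *Acvr2b* was above it in 28 cells, *Acvr1* in 16 and *Bmpr2* in 11, and *Bmpr1b* in 0. *Smad4*, the shared partner of the receptor SMADs, was above it in 29 cells and differed by -0.14 between KO-labelled and WT-labelled cells (pooled SD of 0.92), and *Smad9* was above it in 1 cell.

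All 7 intracellular inhibitors passed the minimum, with differences in both directions. *Smad6* and *Smad7* encode inhibitory SMADs. *Smad6* was lower by a difference of -1.19 between KO-labelled and WT-labelled cells (pooled SD of 1.15) and *Smad7* was higher by 1.27 (pooled SD of 1.83). Of the ubiquitin ligases that target SMADs, *Smurf1* was at -1.05 (pooled SD of 1.66) and *Smurf2* at 1.08 (pooled SD of 1.80), but *Smurf2* was at -1.01 from +/- labelled cells within run 3. *Ski*, a SMAD corepressor, was at -0.36 (pooled SD of 2.05), and at -1.38 from +/- labelled cells within run 3 (pooled SD of 2.11). Its relative *Skil* was at 1.23 between KO-labelled and WT-labelled cells (pooled SD of 1.82) and *Bambi*, a decoy receptor, was above the floor in all 30 cells and differed by 0.52 (pooled SD of 1.51). Between KO-labelled and WT-labelled cells, only *Smad6* of these exceeded its pooled SD.

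Between KO-labelled and WT-labelled cells, *Fst*, *Id4* and *Bmper* had the largest differences of the 18 genes. *Fst*, which encodes the activin and BMP binding protein follistatin, was above the floor in 2 of 4 KO-labelled cells, 8 of 13 labelled *Prdm14*+/- and 12 of 13 labelled WT. Its difference between *Prdm14* KO and WT was -3.04 (pooled SD of 1.52), and -2.14 from *Prdm14*+/- within run 3 (pooled SD of 2.05). *Bmper*, which encodes a secreted BMP binding protein, was at the floor in all 4 KO-labelled cells and above it in 6 of 13 labelled *Prdm14*+/- and 9 of 13 labelled WT, so the size of its difference of -2.53 depends on the floor. The other secreted modulators that passed the minimum, *Twsg1* and *Grem1*, were at -0.87 and -0.37. Noggin (*Nog*) was never above the floor, and chordin (*Chrd*) in 2 cells. *Id4*, the fourth Id gene, was above the floor in 1 of 4 KO-labelled cells (10.97), in 5 of 13 labelled *Prdm14*+/- and in 12 of 13 labelled WT. Its mean was 7.24 ± 2.49 in KO-labelled cells (SD, n = 4), 7.25 ± 1.81 in +/- labelled cells and 10.09 ± 1.60 in WT-labelled cells (SD, n = 13 each). The difference from WT was -2.85 for *Prdm14* KO (pooled SD of 1.81) and -2.85 for *Prdm14*+/- (pooled SD of 1.71), it was -3.68 between *Prdm14*+/- and WT within run 2, and it was -0.09 between *Prdm14* KO and *Prdm14*+/- within run 3. Within run 2, the WT-labelled cells had a lowest value of 9.62 and +/- labelled cells a highest of 10.19, so even there the labels overlapped. *Hand1* differed by -1.04 between KO-labelled and WT-labelled cells (pooled SD of 1.61) and by -2.30 from +/- labelled cells within run 3 (pooled SD of 1.80).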

How the data were processed

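Expression was measured in 30 single cells on GeneChip Mouse Genome 430 2.0 arrays. The deposited log2 values are MBEI that the authors calculated with dChip 1.3 (PM/MM difference model), while their scaling and the meaning of 0 are unstated (not given in the sources used here). Values were taken as deposited, with 0 columns left out, and floored at 6. Gene symbols came from the platform's annotation table. The probe set of highest mean stood for its gene. Mean log2 values were subtracted between labels, with the array run (from the array codes) fitted as a block by least squares or held fixed. None of the 435 pairs of arrays was identical (r from 0.578 to 0.737). Named genes were the members, other pathway genes by role with values for those past 1, and the 3 probe sets most like each member. Marker lists had 6 of 10 measured germ cell genes higher by at least 1 in KO-labelled cells than in WT-labelled cells, against 21.6% of all probe sets past 1. Within run 3, 6 were higher than in +/- labelled cells, against 24.7%. Between KO-labelled and WT-labelled cells, 0 of 3 extraembryonic ectoderm genes were past 1 and 1 of 4 posterior mesoderm genes was lower. The lists of visceral endoderm (higher), blood and endothelium (higher) and epiblast (lower) had 1 measured gene each. Members and lists were chosen with earlier results of these data known. Scripts were tested on simulated data. Alternatives were floors of 4 and 8, 2 normalizations, medians, all probe sets, the run, and leaving out cells. Python 3.11.15, NumPy 2.4.6, pandas 2.3.3, SciPy 1.17.1 and matplotlib 3.10.9 were used.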

Additional observations from a re-analysis of the deposited data

Results flagged for a closer look

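Within cells of 1 label and run, 43 sets of 4 to 10 values were examined for a single cell far from the others, and 7 were marked. Chance marks about 1 in 20 sets of normally distributed values. Many of these sets hold values at the floor, so that rate does not apply and the count of 7 cannot be set against it. The gap to the nearest cell, as a share of the whole range, is given for each. Among the 10 WT-labelled cells of run 1, cell 25 was lowest for *Id3* (0.788, at the floor against 10.62 for the next), for *Msx1* (0.645, at 11.15 against 12.06) and for the mean of the 5 response genes (0.53, at 9.04 against 10.58). The last of these contains the first 2. In the same run cell 31 was lowest for *Bmp4* (0.549) and cell 49 for *Bmpr1a* (0.612), both at the floor. For *Bmp8b*, cell 97 of the 6 labelled *Prdm14*+/- in run 3 and cell 88 of the 7 in run 2 were the only ones above the floor, which gives a share of 1 by construction.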

How the results depend on the processing

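The response genes' mean was lower in all 3 comparisons under all 30 alternatives, at -0.85 to -0.13 between KO-labelled and WT-labelled cells, -0.79 to -0.07 between *Prdm14* KO and *Prdm14*+/- within run 3, and -0.60 to -0.31 between *Prdm14*+/- and WT. The first was -0.77 when blocked by run. The median r of the response genes ranged from 0.41 to 0.62, and was 0.47 without the 3 cells with the fewest probe sets above 0, an alternative chosen after seeing the data. The count of members past 1 moved more, and the cause was not tested. Between *Prdm14* KO and WT (2) it was 6 with a floor of 4, 0 with a floor of 8 and 0 to 5 when 1 cell labelled *Prdm14* KO was left out: 0 without cell 18, 5 without cell 21 and 5 without cell 81. Between *Prdm14* KO and *Prdm14*+/- within run 3 (0) it was 1 with a floor of 4, 2 between medians and 0 to 2 with 1 cell left out. Between *Prdm14*+/- and WT (1) it was 0 with a floor of 8 and 3 between medians. With 1 KO-labelled cell left out, the differences between *Prdm14* KO and WT ranged from -1.04 (without cell 81) to -0.46 (without cell 8) for *Id1* and from 0.35 (without cell 18) to 1.54 (without cell 21) for *Smad1*, and those within run 3 from -1.34 (without cell 81) to -0.17 (without cell 8 or 18) for *Id2* and from -1.18 (without cell 81) to 0.41 (without cell 18) for *Msx2*. Of 300 single-gene values under alternatives, 294 moved by less than 1 SD between cells and 6 by more, 5 of them with the run held fixed or as a block and 1 (*Smad5*) with all +/- labelled cells. Some could not move: the use of all probe sets for *Bmp4*, *Id1* and *Id3*, which have 1 each, and leaving out a KO-labelled cell for *Bmp8b*. Between *Prdm14*+/- and WT, the values within run 2 and with the run as a block are the same number counted again. No paired analysis was possible because the labels share no replicate numbers that pair cells. The dim probe sets of *Bmp8b*, *Smad1* and *Id2* are limited by the floor, and with 1 sample per genotype no difference has a test.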
